A study of Mus musculus with 14 samples.

Results

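The genes described here link dying cells to the cells that swallow them, and were followed in sorted mouse marrow cells: the bridging ligands Gas6, Pros1 and Mfge8, and the receptor tyrosine kinases Axl, Mertk and Tyro3. They were matched by gene name, 6 of the 55335 genes in the count table, and all 6 passed the filter on low counts that left 21509 genes for testing. The set was chosen because Gas6 and Mfge8 were high after CD45-targeted treatment. Every value of these genes in a contrast with that group is therefore a description, and tests are given only for contrasts among the other groups.

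The cells came from bone marrow of Cdh5 CRE Rosa26 TdTomato mice, in which Cre recombinase under the endothelial Cdh5 promoter turns on a red fluorescent protein, and all 4 groups carried these alleles. Cells negative for lineage markers and CD45 and positive for tdTomato were sorted and profiled by RNA sequencing. The 14 libraries comprised untreated mice (n = 4), mice given 500 cGy of total body irradiation from a caesium source (TBI, n = 5), mice given 20 µCi of radioimmunotherapy on a non-targeted IgG (IgG RIT, n = 3) and mice given 20 µCi of radioimmunotherapy targeted to CD45 (CD45 RIT, n = 2). The series title names astatine-211 as the radionuclide of the CD45-targeted therapy. Treated mice were harvested 8 days after treatment. The comparisons address how marrow niche cells differ after external and antibody-borne radiation. The labels do not say whether replicates were separate animals or pools, so p-values measure only the spread between these libraries, which may be technical.

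Total counts ranged from 16412779 to 31077588 per library, and the limit that a count of 0 allows, 3 counts, was 0.0786 to 0.215 counts per 1000000 (CPM). Several defining endothelial markers were at or near 0. Cdh5, the gene of the promoter that drives the reporter, had at most 6 counts in any library and 0 in every RIT library, and 7 of 20 endothelial markers (Cdh5, Emcn, Ly6c1, Sox17, Stab2, Tek and Tie1) were at 0 in both CD45 RIT libraries. The sum of all 20 was not lower in both of these libraries, at 82.7 CPM in replicate 1 and 307 CPM in replicate 2. It was 185 to 227 CPM in untreated, 89.2 to 231 in TBI and 66.4 to 78.9 in IgG RIT libraries. Sums of 18 stromal markers were 3333 to 8693 CPM in untreated, 993 to 2360 in TBI, 398 to 1218 in IgG RIT and 35872 to 57687 in CD45 RIT libraries. Sums of 12 erythroid markers were 11651 to 18459, 32107 to 189904, 143716 to 152902 and 48112 to 197094 CPM in the same order, with TBI replicate 6 at the top of its group. The CD45 RIT libraries had counts for 20994 and 17700 genes and the other 12 libraries for at least 21660. All untreated libraries and TBI replicates 1, 3, 4 and 5 have library numbers under 10 in the labels, and TBI replicate 6 and all RIT libraries have numbers of 10 or more. The labels do not call these numbers a batch. TBI was the only group with numbers on both sides of 10. A term for library number in a fit therefore rests on TBI replicate 6 alone and cannot tell numbering apart from that library's own deviation.

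Cells that die display phosphatidylserine on their outer face. Gas6 and protein S, the product of Pros1, bind this lipid through a vitamin K-dependent domain and bring it to Tyro3, Axl and Mertk, known together as TAM receptors. Mfge8 binds the same lipid and brings it to the integrins alpha-v beta-3 and alpha-v beta-5 instead. In marrow this clearance is known mainly from macrophages, while stromal cells can secrete the ligands.

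The 4 members whose CD45 RIT libraries both lay above all other libraries were Gas6, Pros1, Mfge8 and Axl, and their proximal promoters are shown because the 4 genes were high together. Each line holds the 250 bases before the RefSeq gene start (GRCm38.p6, 5′ to 3′ on the gene's strand), and capitals mark GGGCGG or its reverse complement CCGCCC, the core of the GC box that Sp1-family factors can bind. The windows are chr8:13494536-13494785 on the minus strand for Gas6, chr16:62854057-62854306 on the plus strand for Pros1, chr7:79149061-79149310 on the minus strand for Mfge8 and chr7:25788734-25788983 on the minus strand for Axl.
Gas6 promoter: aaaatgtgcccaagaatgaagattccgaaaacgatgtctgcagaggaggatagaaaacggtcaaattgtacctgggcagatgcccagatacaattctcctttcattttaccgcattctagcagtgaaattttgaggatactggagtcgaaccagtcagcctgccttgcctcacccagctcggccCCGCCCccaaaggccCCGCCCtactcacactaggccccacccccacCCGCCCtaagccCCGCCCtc
Pros1 promoter: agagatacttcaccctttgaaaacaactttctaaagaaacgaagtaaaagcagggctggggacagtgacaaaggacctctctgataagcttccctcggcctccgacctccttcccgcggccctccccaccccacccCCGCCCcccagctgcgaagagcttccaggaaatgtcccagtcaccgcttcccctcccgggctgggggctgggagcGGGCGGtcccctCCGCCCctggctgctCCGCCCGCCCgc
Mfge8 promoter: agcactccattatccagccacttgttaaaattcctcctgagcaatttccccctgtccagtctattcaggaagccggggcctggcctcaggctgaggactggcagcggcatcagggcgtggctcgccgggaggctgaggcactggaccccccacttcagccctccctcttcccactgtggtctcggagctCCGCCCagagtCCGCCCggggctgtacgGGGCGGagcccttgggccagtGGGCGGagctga
Axl promoter: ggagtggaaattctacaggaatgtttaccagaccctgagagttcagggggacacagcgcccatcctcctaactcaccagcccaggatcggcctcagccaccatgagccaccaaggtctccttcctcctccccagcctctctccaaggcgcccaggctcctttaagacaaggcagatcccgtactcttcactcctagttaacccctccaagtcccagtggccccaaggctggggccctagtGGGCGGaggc

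A RefSeq promoter was matched for 6 of 6 members. On both strands, the Gas6 window held 4 GGGCGG matches, Pros1 5, Mfge8 4, Axl 1, Mertk 3 and Tyro3 3. Matches that overlap were counted separately. Of 32851 promoter windows of the same length, 32.7% held at least 1 match, 4.09% at least 4 and 1.93% at least 5. The CCAAT box was in none of the 6 windows, against 33.8% of all windows. The letters TATAAA were likewise absent from all 6 (12.4% of all windows), as was the AP-1 motif TGANTCA (6.75% of all windows). CANNTG, the E-box, occurred 1 time in each of the 3 ligand windows and in none of the receptor windows, against 66.2% of all windows with at least 1. These matches describe letters in the windows and no binding was measured.

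Gas6 (ENSMUSG00000031451.6, GRCm38 chromosome 8, 13465374 to 13494490, minus strand) was the most abundant member in every group mean. In untreated libraries it stood at 204, 268, 92.0 and 158 CPM in replicates 1 to 4, and in TBI libraries at 23.0, 11.3, 13.8, 1.42 and 19.7 CPM in replicates 1, 3, 4, 5 and 6. All 5 TBI libraries lay below all 4 untreated ones. Untreated libraries averaged 181 CPM of Gas6 (SD 74.4, n = 4) and TBI libraries 13.9 CPM (SD 8.36, n = 5), a 13.1-fold fall. The log2 fold change was -3.71 (SE 0.64) and the adjusted p was 0.0076 by edgeR's quasi-likelihood test with Benjamini-Hochberg adjustment over all genes tested. IgG RIT libraries held 27.5, 24.7 and 77.7 CPM, again all below the untreated group, but the log2 fold change of -2.06 (SE 0.73) missed the threshold (edgeR adjusted p = 0.0707). It passed with unscaled library sizes, with DESeq2 and in a fit of these groups alone (adjusted p = 0.0238, 0.0364 and 0.0276).

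In the CD45 RIT libraries Gas6 reached 6749 and 7034 CPM, which made up 0.475% and 0.545% of all counts and ranked 14th and 12th among all genes. Against untreated libraries this was a 38.1-fold difference (log2 fold change 5.25), against IgG RIT 159-fold (7.31) and against TBI 498-fold (8.96). Both libraries lay above all 12 others and close to each other (6892 ± 201 CPM, SD, n = 2). Gas6 overlaps the opposite-strand gene Tmem255b on 34 exonic bases of the 2548 in its model, and whether counting used strand is not given in the sources used here. Tmem255b counts were 7.45% to 14.3% of the Gas6 counts in each of the 14 libraries, with 8251 and 13450 counts after CD45 RIT, so the values of Tmem255b are uncertain and a small part of the Gas6 counts could be too. In bulk libraries such as these, fewer cells of a type and less RNA per cell cannot be told apart.

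**Figure D1:**
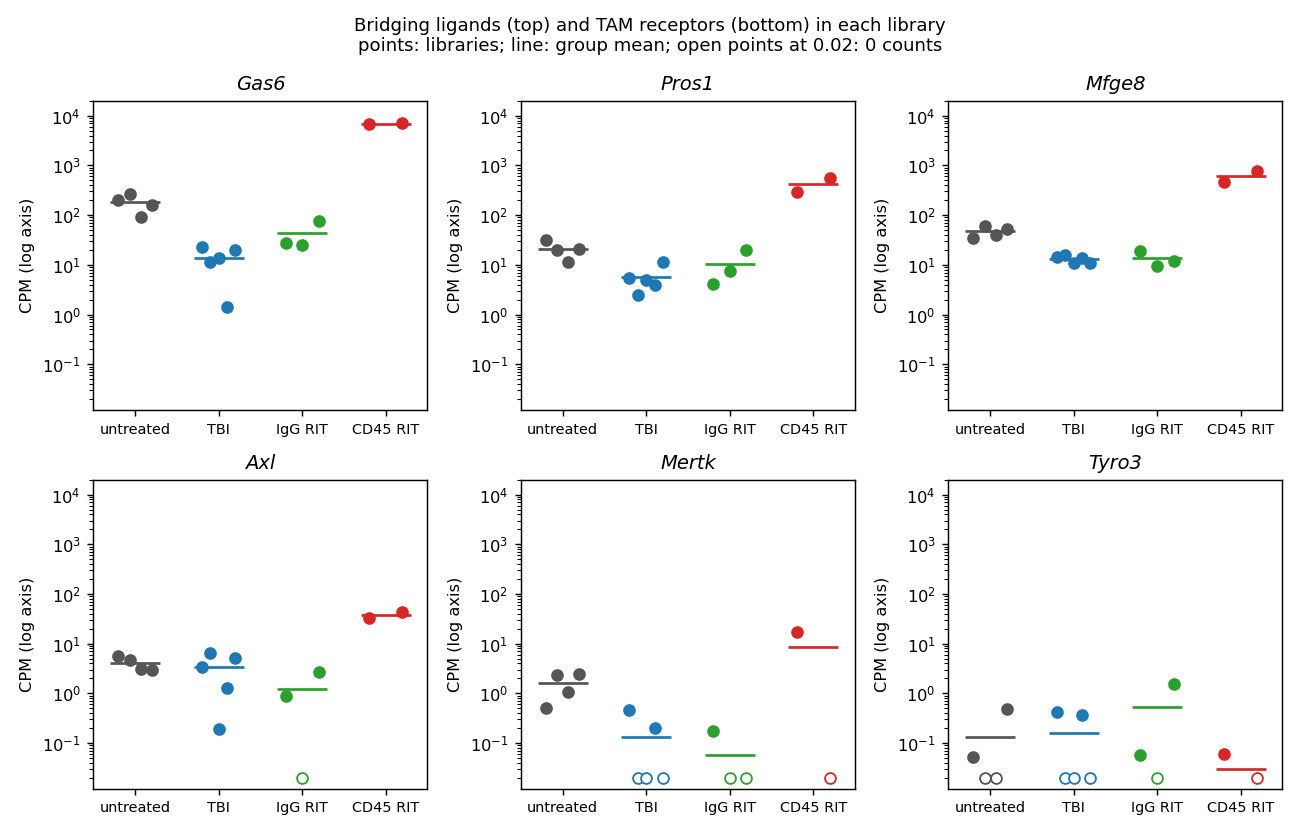
CPM of the 6 members in each of the 14 libraries on a logarithmic axis, 1 point per library and 1 panel per gene, with groups along the horizontal axis, lines at group means and open points at the foot for 0 counts. Gas6, Pros1, Mfge8 and Axl each have both CD45 RIT libraries above all others, while Mertk is high in CD45 RIT replicate 1 and at 0 in replicate 2.

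Pros1 (ENSMUSG00000022912.8, chromosome 16, 62854307 to 62929346, plus strand) encodes protein S, an anticoagulant cofactor that is also a ligand of Tyro3 and Mertk. Its untreated libraries held 31.6, 20.3, 11.6 and 20.4 CPM and its TBI libraries 5.34, 2.49, 4.91, 4.00 and 11.4 CPM. The groups did not overlap, but only just, since TBI replicate 6 at 11.4 CPM lay next to untreated replicate 3 at 11.6. The log2 fold change of Pros1 after TBI was -1.90 (SE 0.51, edgeR adjusted p = 0.057) and missed the threshold. Without TBI replicate 6 it was -2.32 and passed (edgeR adjusted p = 0.0255). It also passed with unscaled library sizes, DESeq2 and a fit of these groups alone (adjusted p = 0.0284, 0.0193 and 0.0266). A term for library number, which rests on TBI replicate 6 alone, nearly repeats leaving that library out (edgeR adjusted p = 0.0258). IgG RIT libraries held 4.05, 7.37 and 19.4 CPM, the last of them inside the untreated range, and the log2 difference of -1.03 was not called (SE 0.59, adjusted p = 0.248). In the CD45 RIT libraries Pros1 stood at 294 and 568 CPM, 20.5-fold above untreated (log2 fold change 4.36), and replicate 2 was the higher by 1.94-fold.

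Mfge8 (ENSMUSG00000030605.15, chromosome 7, 79133768 to 79149060, minus strand) encodes a secreted glycoprotein with an integrin-binding motif. It fell after both treatments that could be tested. Untreated libraries held 35.4, 61.5, 39.5 and 52.7 CPM, TBI libraries 14.2, 15.7, 10.8, 13.6 and 10.9 CPM and IgG RIT libraries 18.9, 9.36 and 12.0 CPM. All treated libraries named here lay below all untreated ones. The untreated mean of 47.3 CPM (SD 12.0, n = 4) compared with 13.1 CPM (SD 2.14, n = 5) after TBI, where Mfge8 fell by 1.86 on the log2 scale (SE 0.25, edgeR adjusted p = 0.00238). After IgG RIT the mean was 13.4 CPM (SD 4.94, n = 3), and Mfge8 fell by 1.81 (SE 0.30, edgeR adjusted p = 0.00354). In a fit with a term for library number, which rests on TBI replicate 6 alone, the IgG RIT change was -1.50 and no longer passed (edgeR adjusted p = 0.504). TBI and IgG RIT libraries overlapped, with a difference of 0.04 (SE 0.27, adjusted p = 0.954). The CD45 RIT libraries held 462 and 760 CPM of Mfge8, 12.9-fold above untreated (log2 fold change 3.69) and 45.5-fold above IgG RIT (5.51).

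The receptors were scarce. Axl (ENSMUSG00000002602.16, chromosome 7, 25757273 to 25788705, minus strand), for which Gas6 is the ligand, held 5.69, 4.61, 3.14 and 2.98 CPM in untreated libraries and 3.43, 6.61, 0.191, 1.25 and 5.10 CPM in TBI libraries, so the groups overlapped. The log2 fold change after TBI was -0.31 (SE 0.97, edgeR adjusted p = 0.932). IgG RIT libraries held 0.869, 0 and 2.73 CPM, all below the untreated range, but the log2 difference of -1.77 was not called (SE 1.18, adjusted p = 0.32). Axl reached 32.7 and 43.4 CPM in the CD45 RIT libraries, 9.26-fold above untreated (log2 fold change 3.21).

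Mertk (ENSMUSG00000014361.5, chromosome 2, 128698956 to 128802894, plus strand) is the TAM receptor of resident macrophages. It had 19, 79, 32 and 71 counts in untreated libraries, 13, 0, 0, 6 and 0 in TBI libraries and 3, 0 and 0 in IgG RIT libraries. Both treated groups lay below the untreated one, but neither change passed (TBI log2 fold change -3.46, SE 1.53, edgeR adjusted p = 0.252; IgG RIT adjusted p = 0.141). With all IgG RIT libraries at or under 3 counts, the mean of the untreated group was at least 9.97-fold higher. In CD45 RIT replicate 1 Mertk had 282 counts (17.2 CPM), and in replicate 2 it had 0. The 2 libraries of this group thus lay at opposite ends of the range, and without replicate 1 the log2 fold change against untreated turned from 2.42 to -8.35. The size of that fall is not measured, since replicate 2 had 0 counts. The limit of 3 counts in that library was 0.144 CPM, against an untreated mean of 1.60 CPM. A list of 13 macrophage genes other than Vcam1, which stromal cells also express, summed to 82.0 to 93.8 CPM in untreated, 13.5 to 26.9 in TBI and 8.72 to 19.9 in IgG RIT libraries. In CD45 RIT replicate 1, which had the Mertk counts, the sum was 46.7 CPM, and in replicate 2, which had none, it was 161 CPM. These sums are per total counts, while the CPM of single genes below use scaled library sizes. The scaling factors were 0.704 and 0.776 in the CD45 RIT libraries, so single-gene values there read higher and do not add up to the sums. The genes of this list did not move alike. Adgre1, which encodes F4/80, and Clec4f were at 0 in all IgG RIT and CD45 RIT libraries, and Marco and Spic in both CD45 RIT libraries. Csf1r held 2.62 and 2.89 CPM after CD45 RIT against at least 34.5 in untreated libraries. C1qb held 18.5 and 56.4 CPM against at most 1.11, and Cd68 17.6 and 71.9 CPM against 10.6 to 17.7. C1qa reached 15.7 CPM in CD45 RIT replicate 1, whereas C1qc and Timd4 reached 30.6 and 45.2 CPM in replicate 2. Each had at most 2 counts in the other CD45 RIT library. The part of macrophage RNA in the Mertk values was not tested.

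Tyro3 (ENSMUSG00000027298.17, chromosome 2, 119797733 to 119818104, plus strand) was near the limit of detection. It had 2, 0, 0 and 14 counts in untreated, 12, 0, 0, 11 and 0 in TBI, 1, 0 and 29 in IgG RIT and 1 and 0 in CD45 RIT libraries. Of the 14 libraries, 4 were above 3 counts, spread over 3 groups. No direction could be read, and the log2 fold change after TBI of 0.31 (SE 1.71, edgeR adjusted p = 0.966) turned to -0.40 without TBI replicate 1.

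After TBI, 2 of the 6 members were called, both lower, where 4.31% of all genes were called and 3.38% were called lower. After IgG RIT, 1 of 6 was called, lower, where 16.4% of all genes were called and 10.7% were called lower. Gas6, Pros1, Mfge8 and Mertk had all TBI libraries below all untreated ones, 4 of 6 members against 12.8% of all genes. For IgG RIT these were Gas6, Mfge8, Axl and Mertk, again 4 of 6 against 27.4% of all genes. Both comparisons share the untreated libraries. Between IgG RIT and TBI, 0 of 6 members were called by edgeR, where 0.242% of all genes were, and 1 had an unadjusted p under 0.05: Gas6, with a log2 difference of 1.64 (SE 0.64, adjusted p = 0.201). DESeq2 gave an adjusted p for 5 members, without Tyro3, and called 0 of them. All 3 IgG RIT libraries lay above all 5 TBI libraries for Gas6, as for 8.37% of all genes. Leaving out TBI replicate 6 or any other library changed no call on Gas6 or Mfge8 in the TBI comparison, where their highest adjusted p was 0.0275 and 0.01.

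In the contrasts that the choice of members rests on, 4 of 6 members had both CD45 RIT libraries above all untreated ones, where 17.5% of all genes did. The same holds for 4 of 6 against IgG RIT (21.7% of all genes) and 4 of 6 against TBI (18.2%). The scaling of the libraries moved the whole distribution: with unscaled library sizes the median log2 fold change of all genes against untreated shifted by -0.52 for IgG RIT, -0.71 for CD45 RIT and -0.12 for TBI, and with RLE factors by 0.21, 0.24 and 0.12. Relative to the median of all genes, Gas6 was at -3.54 after TBI, -1.64 after IgG RIT and 5.62 after CD45 RIT, and Mfge8 at -1.69, -1.39 and 4.06.

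**Figure D2:**
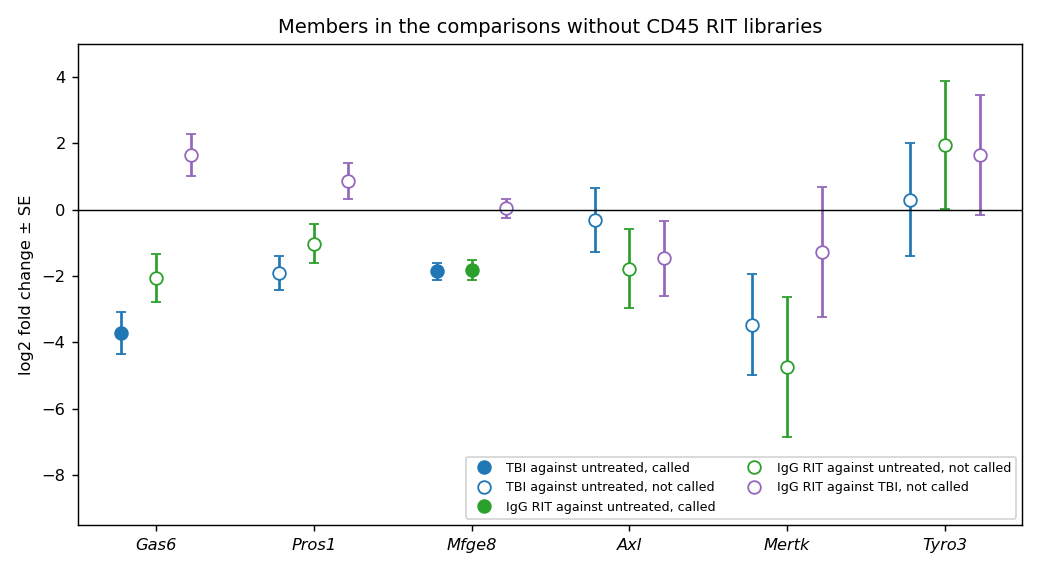
Log2 fold change of each of the 6 members for TBI against untreated, IgG RIT against untreated and IgG RIT against TBI, with bars of 1 SE from the edgeR fit and filled points at an adjusted p under 0.05. The filled points are Gas6 after TBI (-3.71) and Mfge8 after TBI (-1.86) and IgG RIT (-1.81), and no point of IgG RIT against TBI is filled.

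Levels were compared between genes per kilobase of the deposited gene length. In untreated libraries Gas6 averaged 70.9 ± 29.2 CPM per kb (SD, n = 4), Mfge8 10.1 ± 2.56, Pros1 5.13 ± 2.00, Axl 0.815 ± 0.255, Mertk 0.369 ± 0.224 and Tyro3 0.0217 ± 0.0379. Within 1 SD of their means, the levels of the neighbours Axl and Mertk overlapped and those of the other neighbours did not. In TBI libraries the per-length means were 5.44 for Gas6, 2.78 for Mfge8, 1.38 for Pros1 and 0.659 for Axl, in IgG RIT libraries 17.0, 2.86, 2.52 and 0.239, and in CD45 RIT libraries 2705, 130, 105 and 7.56. These 4 genes thus kept 1 order in all 4 group means, while Mertk and Tyro3 stayed below them. The spreads of neighbours overlapped in part. In TBI libraries the SDs were 3.28, 0.455, 0.835 and 0.526 in that order, so Gas6 and Mfge8, and Pros1 and Axl, overlapped within 1 SD. Mfge8 and Pros1 overlapped in IgG RIT (SD 1.05 and 1.98) and in CD45 RIT libraries (SD 44.8 and 47.5). Not every library kept the order. Gas6 made up 76.2% to 85.4% of the summed per-length level of the 3 ligands in untreated libraries, 12.6% to 67.6% in TBI, 68.2% to 80.6% in IgG RIT and 94.0% and 90.2% in CD45 RIT libraries. The lowest share belonged to TBI replicate 5, where Gas6 had 42 counts. Axl made up 47.8% to 90.2% of the summed receptor level in untreated libraries, and Mertk 9.16% to 45.8%. In every library with receptor counts the ligands outweighed the receptors per length, by 54.4 to 84.5 times in untreated, 47.9 and 71.2 times in the 2 such IgG RIT libraries and 269 and 355 times in CD45 RIT libraries. In TBI libraries the ratio was 6.4 to 15.6 in replicates 1, 3, 5 and 6, below the untreated range, and 236 in replicate 4, which had 4 receptor counts.

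The stromal marker sums, like Gas6, Pros1, Mfge8 and Axl, were highest in the CD45 RIT libraries. Each member was therefore set against the stromal-list counts of its own library, a description added after the values had been seen. Per 1000 stromal counts, Gas6 had 25.5 to 48.9 (median 31.1) in untreated, 0.837 to 14.9 (median 11.6) in TBI, 18.0 to 61.7 (median 54.3) in IgG RIT and 94.5 and 132 in CD45 RIT libraries. On this scale the TBI libraries still lay below all untreated libraries, and the IgG RIT libraries spanned the untreated range. The stromal sum gives most weight to its abundant genes, which did not change alike. Cxcl12 averaged 1130 CPM in untreated and 112 in TBI libraries, and Col1a1 1385 and 485. How far the position of Gas6 on this scale depends on those weights was not tested. Mfge8 had 5.00 to 14.3 in untreated, 7.11 to 12.0 in TBI, 9.55 to 20.6 in IgG RIT and 9.07 and 10.2 in CD45 RIT libraries. For Mfge8 all 4 groups therefore overlapped once the stromal signal was the denominator. Pros1 had 3.28 to 4.46, 1.90 to 8.10, 2.65 to 16.2 and 5.75 and 7.63 per 1000 in the same order, with both CD45 RIT libraries above the untreated range. Axl had 0.479 to 1.14 (median 0.821) in untreated, 0.206 to 5.04 (median 1.72) in TBI, 0 to 2.17 (median 0.569) in IgG RIT and 0.584 and 0.641 in CD45 RIT libraries, and all 4 groups overlapped. Mertk had 0.0703 to 0.431, 0 to 0.231, 0 to 0.114 and 0 and 0.337 in the same order. Tyro3 had 0 to 0.0781, 0 to 0.219, 0 to 1.21 and 0 and 0.0012. How far a change in the share of stromal cells enters the CPM values was not tested.

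**Figure D3:**
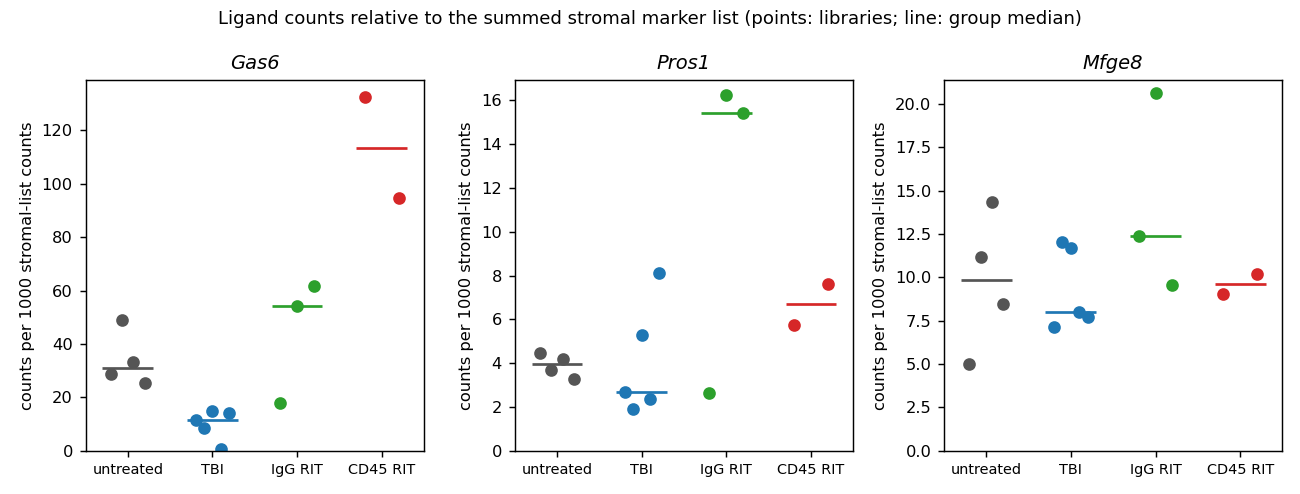
Counts of the ligands Gas6, Pros1 and Mfge8 per 1000 counts of the 18 stromal markers in the same library, 1 panel per gene on a linear axis from 0, with 1 point per library and a line at each group median. Gas6 has its CD45 RIT libraries at 94.5 and 132, above the rest, whereas the Mfge8 points of all 4 groups lie between 5.00 and 20.6.

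The genes whose pattern over the 14 libraries was most like each member were picked by the Pearson correlation of log2 CPM among protein-coding genes whose log2 CPM averaged 3 or more. These correlations are descriptions over libraries that share their depth, their treatment groups and their mixture of cells. For Gas6 they were Cxcl12 (0.986), the chemokine that holds blood stem cells in the niche, Ltbp2 (0.985), a matrix protein of the latent TGF-beta binding family, and Serping1 (0.981), the C1 inhibitor. Over the 12 libraries without CD45 RIT, Ltbp2 (0.960) and Cxcl12 (0.959) were again the nearest, followed by Cpxm1 (0.956). For Pros1 the nearest were Socs3 (0.983), Prelp (0.980) and Spry1 (0.979), and for Mfge8 Xbp1 (0.984), Bgn (0.981) and Maged2 (0.980). Without CD45 RIT the nearest to Mfge8 were other genes, Btbd2 (0.953), Gna11 (0.948) and Hk3 (0.948). Axl was nearest to Slc25a20 (0.888) and Mertk to Lmf1 (0.877), and no gene reached more than 0.557 with Tyro3. Among the members themselves, Gas6 and Pros1 correlated at 0.942 over 14 libraries and 0.828 over the 12, and Mfge8 and Mertk at 0.514 over 14 and 0.918 over the 12. Of the 12, Mertk was at or under 3 counts in 3 TBI and 3 IgG RIT libraries, so its correlations largely set untreated libraries against values near the limit.

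A list of 68 other genes of dying-cell clearance, in 7 groups by role, was examined in the same fits, and 62 passed the filter. After TBI, 11 of the 62 were called by edgeR, 2 higher and 9 lower, which is 17.7% against 4.31% of all genes (0.921% higher and 3.38% lower). Adam10, a protease that can shed Axl and Mertk from the cell surface, averaged 113 CPM (SD 22.6, n = 4) without irradiation and 260 CPM (SD 77.1, n = 5) after TBI and rose by 1.20 on the log2 scale (edgeR adjusted p = 0.0211). Vkorc1l1, a vitamin K epoxide reductase, rose by 0.87 (edgeR adjusted p = 0.0218), and was not called with unscaled library sizes (0.74, adjusted p = 0.06). Erythroid markers summed to 32107 to 189904 CPM in TBI libraries, against at most 18459 in untreated ones. Their part in the rises of Adam10 and Vkorc1l1 was not tested. Cx3cl1, the find-me chemokine fractalkine, fell by 3.08, Lrp1, a receptor that takes up dying cells marked by calreticulin, fell by 2.63, and Itgb5, the beta-5 chain of an Mfge8 receptor, fell by 2.25 on the log2 scale (edgeR adjusted p = 0.0176, 0.023 and 0.0495). The call on Itgb5 was lost with RLE factors (adjusted p = 0.0694). Neutrophil markers summed to 96.8 to 1224 CPM in TBI libraries against 10336 or more in untreated ones, haematopoietic markers to 306 to 1628 against 2921 or more and stromal markers to 993 to 2360 against 3333 or more, and their part in the falls was not tested. The median log2 fold change was -0.84 over the 62 genes and -0.16 over all genes tested, or -0.75 and -0.15 with genes at or under 3 counts throughout 1 group set to their bound. Leaving out 1 library ended several of these calls: that on Adam10 without untreated replicate 2 or 4 (adjusted p = 0.0773 and 0.0628), that on Cx3cl1 without untreated replicate 1 (0.0519), that on Lrp1 without untreated replicate 1 or 2 or TBI replicate 3, 4 or 5 (0.0511 to 0.0777), that on Vkorc1l1 without untreated replicate 1, 2 or 3 or TBI replicate 3 or 5 (0.0504 to 0.0755) and that on Itgb5 without any 1 of the 9 libraries (0.0604 to 0.139). The count of called genes fell to 5 to 7 when any 1 of untreated replicates 1 to 4 or of TBI replicates 3, 4 and 5 was left out.

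After IgG RIT, 18 of the 62 were called, 7 higher and 11 lower (29% against 16.4% of all genes, of which 5.75% were higher and 10.7% lower). With unscaled library sizes 5 were called higher and 14 lower, and with RLE factors 9 and 9. Cd36, a scavenger receptor that red cell precursors also carry, averaged 37.9 CPM (SD 14.2, n = 4) in untreated and 301 CPM (SD 47.5, n = 3) in IgG RIT libraries and rose by 2.99 (edgeR adjusted p = 0.00764). Cd24a, a do-not-eat-me signal likewise present on red cell precursors, rose by 2.76 and Adam10 by 1.52 (edgeR adjusted p = 0.015 and 0.00534). Elmo1, which with Dock1 switches on Rac1 for engulfment, fell by 3.14, and the phosphatidylserine-binding annexins Anxa1 and Anxa5 fell by 2.37 and 2.32 on the log2 scale (edgeR adjusted p = 0.017, 0.00249 and 0.00184). The call on Elmo1 was lost without IgG RIT replicate 1 or 2 (adjusted p = 0.0659 and 0.0701). The sums of erythroid markers in IgG RIT libraries lay at 143716 CPM or more, against at most 18459 in untreated ones. Their part in the rises of Cd36, Cd24a and Adam10 was not tested. None of 13 neutrophil markers was at 0 throughout the untreated or the IgG RIT group, with sums of 10336 to 13008 CPM in the first and 605 to 806 CPM in the second, nor any of 13 haematopoietic markers, with sums of 2921 to 3251 and 333 to 548 CPM. The part of either list in the falls of Elmo1, Anxa1 and Anxa5 was not tested. The median was -0.68 over the 62 genes and -0.42 over all genes (-0.68 and -0.37 with such bounds). The count fell to 10 to 11 without untreated replicate 4, IgG RIT replicate 1 or IgG RIT replicate 2. It fell to 0 with a term for library number, which rests on TBI replicate 6 alone. Between IgG RIT and TBI, edgeR called 0 of the 62, with 14 at an unadjusted p under 0.05. DESeq2 called 7 of the 56 it gave an adjusted p for, and edgeR called 8 without TBI replicate 6.

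After CD45 RIT, 38 of the 62 were called against untreated, 31 higher and 7 lower (61.3% against 33.1% of all genes, of which 14.5% were higher and 18.6% lower). The list was chosen with earlier results of these data known. Its shares and p-values in contrasts with CD45 RIT, here and below, are therefore descriptions and no independent support. With unscaled library sizes 20 were called higher and 9 lower against untreated, and with RLE factors 33 and 5. The stromal marker sums, with none of the 18 genes at 0 throughout a group, stood at 35872 and 57687 CPM in the CD45 RIT libraries against 3333 to 8693 CPM in untreated ones, and their part in the rises of the clearance genes was not tested. Against IgG RIT 38 were called, 32 higher and 6 lower (61.3% against 37.7% of all genes, with 20.2% higher and 17.5% lower). Against TBI 41 were called, 36 higher and 5 lower (66.1% against 38.6%, with 19.6% higher and 19% lower). The Lrp1 mean was 23.1 CPM (SD 9.04, n = 4) without treatment and 522 CPM (SD 103, n = 2) after CD45 RIT, a 22.6-fold rise (edgeR adjusted p = 0.000645). Ptx3, a soluble pentraxin that coats dying cells, rose by 4.59 on the log2 scale (adjusted p = 0.00552), and Socs3, an inhibitor of cytokine signalling of the family that TAM receptors induce, by 4.16 (adjusted p = 0.000346). Scarb1, a scavenger receptor for lipoproteins and phosphatidylserine, fell by 0.94 (adjusted p = 0.00602), and Rhog, a small GTPase upstream of Elmo1, by 0.60 (adjusted p = 0.0407). The call on Rhog was lost with RLE factors (-0.33, adjusted p = 0.24) and without any 1 of untreated replicates 2, 3 and 4 or either CD45 RIT replicate (adjusted p = 0.055 to 0.084). Without either CD45 RIT replicate that group is 1 library, which is assumed to vary like the libraries of the other groups. Against IgG RIT, Lrp1 was higher by 5.82, Ptx3 by 4.91 and Cx3cl1 by 4.82 (edgeR adjusted p = 0.000265, 0.00654 and 0.00126), and Cd47, the main do-not-eat-me signal, was lower (-1.07, edgeR adjusted p = 0.0282). With only these 2 groups in the fit, the calls on Cd47 (adjusted p = 0.0563) and Ptx3 (adjusted p = 0.0737) were lost. Scarb1 (-0.88, adjusted p = 0.00906) and Vkorc1l1 (-0.83, adjusted p = 0.0234) were lower too. The calls on Cd47 and Vkorc1l1 were lost with RLE factors (adjusted p = 0.0544 and 0.0504), and without IgG RIT replicate 1 (0.0674 and 0.082), CD45 RIT replicate 2 for Cd47 (0.0974) or CD45 RIT replicate 1 for Vkorc1l1 (0.0575). Against TBI, Lrp1 was higher by 7.13, Cx3cl1 by 6.57 and Ptx3 by 6.46 (edgeR adjusted p = 1.34e-05, 3.88e-05 and 0.000373), while Scarb1 (-1.05), Rhog (-0.82) and Vkorc1l1 (-0.70) were lower (adjusted p = 0.00211, 0.00703 and 0.0342). The last of these was lost with RLE factors (adjusted p = 0.11) and without TBI replicate 1, 3 or 5 or CD45 RIT replicate 1 (0.0554 to 0.0983). With a term for library number in the fit, which rests on TBI replicate 6 alone, 4 of the 62 were called against untreated libraries.

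By role, 8 of 9 bridging ligands and opsonins tested were called higher against untreated (88.9%, against 14.5% of all genes), and 0 lower (against 18.6%). The CD45 RIT libraries were uneven for some of the 8, with 258 and 0 counts of C1qa and 2 and 637 of C1qc in replicates 1 and 2. Lgals3 held 12.1 and 237 CPM, the former inside the untreated range of 7.88 to 21.5 CPM. Among other receptors for dying cells 8 of 14 were higher and 4 lower (57.1% and 28.6%), in the engulfment machinery 4 of 8 higher and 1 lower (50% and 12.5%), and in cargo handling and lipid sensing 5 of 11 higher (45.5%) and 0 lower. The receptors called higher included Timd4, with 0 and 940 counts in the CD45 RIT libraries, and Megf10, with 1 and 1965. In vitamin K carboxylation, receptor shedding and TAM feedback 4 of 7 were higher (57.1%) and 0 lower. Phosphatidylserine exposure had 1 of 5 higher and 1 lower (20% each), and find-me and do-not-eat-me signals 1 of 8 higher and 1 lower (12.5% each), shares near those of all genes. The median log2 fold change was 3.57 for the ligands and opsonins, 1.34 for all 62 genes and -0.37 for all genes tested (1.34 and -0.24 with bounds). With unscaled library sizes and with RLE factors, called genes against untreated split 1796 higher to 6107 lower and 3853 to 3451 over all genes, against 3115 to 4001 with TMM. For IgG RIT against untreated the same splits were 735 to 4326 unscaled and 1549 to 1766 with RLE factors, against 1236 to 2300 with TMM, and for CD45 RIT against TBI 2994 to 5922 unscaled against 4225 to 4083 with TMM.

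Among the Mfge8 receptors, Itgav, the alpha-v chain, held 9.47 CPM (SD 4.68, n = 4) without treatment and 80.2 CPM (SD 34.6, n = 2) after CD45 RIT and rose by 3.08 (edgeR adjusted p = 0.00602). Itgb3, the beta-3 chain, rose by 2.97 and Itgb5 by 3.45 (edgeR adjusted p = 0.00379 and 0.00344). The CD45 RIT libraries of Itgb5 were uneven, at 49.3 and 404 CPM, both above the untreated maximum of 31.2 CPM, and without replicate 2 its change was 1.22 and not called (adjusted p = 0.171). After TBI, Itgav changed by -0.71 and Itgb3 by -1.81 without passing (edgeR adjusted p = 0.59 and 0.0677). Without TBI replicate 6, Itgb3 was at -2.21 and passed (adjusted p = 0.0314), as it did with unscaled library sizes (0.0338). After IgG RIT none of the 3 integrin chains passed (adjusted p = 0.328, 0.207 and 0.178).

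Ggcx, the carboxylase that prepares Gas6 and protein S for binding phosphatidylserine, split the CD45 RIT group, with 107 CPM in replicate 1 and 1.44 CPM in replicate 2 against 6.08 to 18.9 CPM in untreated libraries. Its log2 fold change of 2.09 did not pass (edgeR adjusted p = 0.105), and it was called lower without replicate 1 (-3.15, adjusted p = 0.00634) and higher without replicate 2 (3.04, adjusted p = 0.000808), each time with 1 CD45 RIT library left and the spread taken from the other groups alone. After TBI, Ggcx was at -1.01, and after IgG RIT at -2.09, and neither was called (edgeR adjusted p = 0.569 and 0.144), although the latter was in a fit of the 2 groups alone (adjusted p = 0.0185). Vkorc1, which recycles vitamin K for that reaction, averaged 7.57 CPM (SD 2.49, n = 4) without treatment and 21.4 CPM (SD 6.26, n = 2) after CD45 RIT, a 2.82-fold rise (edgeR adjusted p = 0.0216). The sheddases Adam10 and Adam17 rose by 0.94 and 1.34 (edgeR adjusted p = 0.036 and 0.00937). With unscaled library sizes none of Vkorc1, Adam10 and Adam17 was called (adjusted p = 0.209, 0.527 and 0.202). The call on Vkorc1 was also lost without untreated replicate 3 or 4 or CD45 RIT replicate 1 (0.0526 to 0.0782), that on Adam10 without untreated replicate 2 or 4 or CD45 RIT replicate 1 (0.0696 to 0.392) and that on Adam17 without CD45 RIT replicate 2 (0.0918). Against IgG RIT, Adam17 was higher by 2.07 (adjusted p = 0.000925) and Adam10 was not called (-0.58, adjusted p = 0.193), except lower with unscaled library sizes (-0.78, adjusted p = 0.046) and without CD45 RIT replicate 1 (-1.17, adjusted p = 0.0217), where 1 library was left in the group and the other groups supplied the spread. After TBI neither Vkorc1 (-0.76, adjusted p = 0.284) nor Adam17 (-0.26, adjusted p = 0.71) was called. After IgG RIT they stood at -1.22 and -0.73 and were not called (edgeR adjusted p = 0.0655 and 0.123), but both were called lower with unscaled library sizes (adjusted p = 0.0187 and 0.0325), Vkorc1 also with DESeq2 (0.0115) and without IgG RIT replicate 3 (0.0464), and Adam17 in a fit of the 2 groups alone (0.044). The 1 gene of this role called lower after IgG RIT was Socs1, an inhibitor of cytokine signalling named here after its value was seen (-2.51, edgeR adjusted p = 0.0353).

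**Figure D4:**
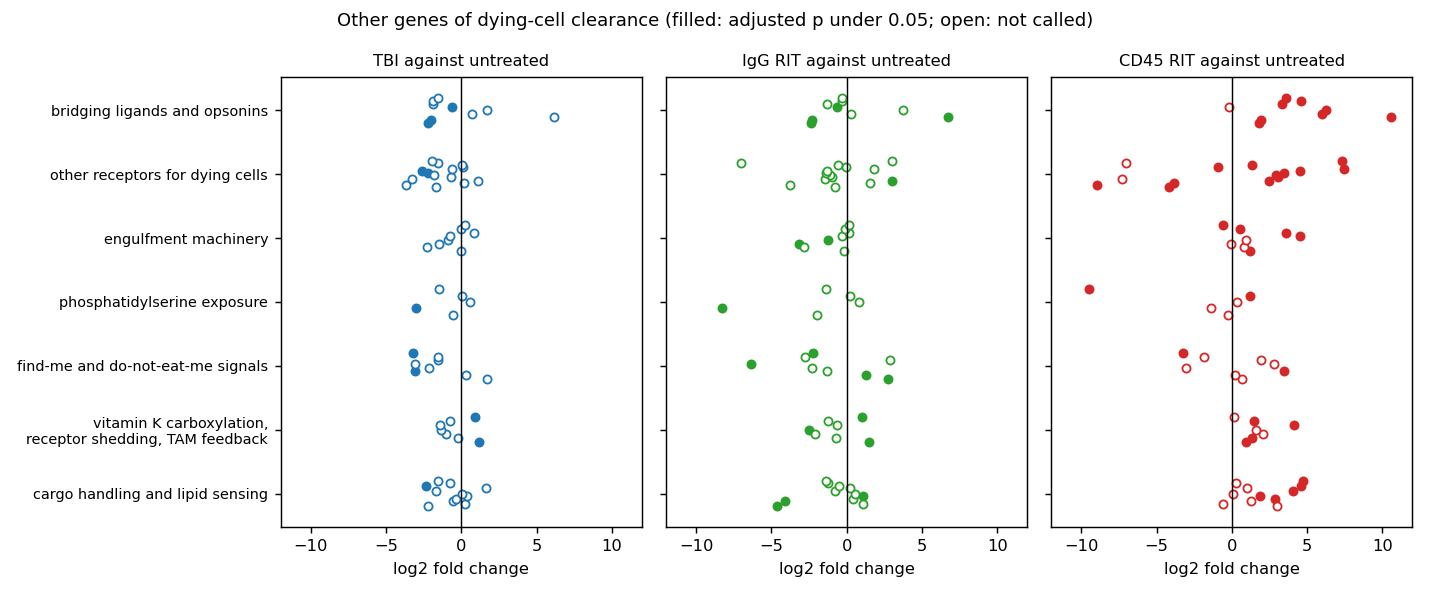
Log2 fold changes against untreated libraries of the 62 tested clearance genes other than the members, grouped by role, after TBI, IgG RIT and CD45 RIT, with filled points for genes at an adjusted p under 0.05. After CD45 RIT 31 of the 62 are called higher and 7 lower (20 and 9 with unscaled library sizes), and after TBI 2 higher and 9 lower.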

How the data were processed

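Raw counts of reads by gene, whole numbers with gene lengths beside them, were deposited by the authors for 14 libraries made with the SMART-Seq v4 and Nextera XT kits, per the labels. STAR 2.7.7a, FastQC 0.11.9 and edgeR 3.36.0 are named in the submitters' processing notes, with hg38 as the build. The table's identifiers and coordinates are of mouse, and 54587 of 55335 rows match GENCODE M21 (GRCm38), the build used here. The counter and its use of strand are not given in the sources used here. The kits give no molecular identifiers, so detection limits cover counting error only. TBI replicate 2 was not analysed here, and 0 columns were left unassigned.

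Counts were fitted with edgeR 4.0.16 in R 4.3.3 (filterByExpr, minimum count 10, minimum total 15; TMM; robust quasi-likelihood; 1 coefficient per group over all libraries). Genes were called at a Benjamini-Hochberg adjusted p under 0.05 over 21509 genes. The SE is the size of the log2 fold change over the square root of F. CPM uses TMM-scaled library sizes, and marker sums use total counts. Log2 CPM has a prior count of 2. The fit was tested on simulated data.

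The members and gene lists were chosen with earlier results of these data known. Clearance genes are named by rule: 7 receptor and enzyme genes always, and in each contrast up to 3 called rises and 3 called falls of largest size, where log2 CPM averaged 3 or more and the groups did not overlap. Alternatives were RLE factors, no scaling, no filter, DESeq2 1.42.0, 2 groups only, a replicate block, a library number term and leaving out each library. The replicate numbers gave no sign of pairing the libraries: of 13 same-numbered pairs, the correlation of deviations was -0.0896 to 0.139 and 1 was over 0.1. In groups this small the deviations of the libraries constrain each other, so this check cannot exclude pairing. The closest replicates had a chi-square per gene of 15.9, so none was counted as a duplicate.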

Additional observations from a re-analysis of the deposited data

Results flagged for a closer look

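In groups of 4 or 5 libraries, 14 of 80 sets of values had 1 library separated from the rest by more than Dixon's 95% critical value allows, where chance gives about 1 in 20. Of these, 9 were TBI replicate 6. It stood high for Cd36 (210 CPM), Cd24a (4308 CPM), Cd47 (1578 CPM) and Socs3 (21.5 CPM), and low for Elmo1 (4.31 CPM) and Anxa1 (18.3 CPM). Its erythroid markers summed to 189904 CPM, its megakaryocyte markers to 87.7 CPM and its endothelial markers to 89.2 CPM, the first 2 above and the last below the other TBI libraries. None of the 6 members was set apart in this library.

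Tyro3 was set apart in untreated replicate 4, at 0.485 CPM and 0.0781 per 1000 stromal counts, and Mertk was low in untreated replicate 1, at 0.0703 per 1000 stromal counts. Cx3cl1 was high in untreated replicate 1 (31.3 CPM), and the haematopoietic markers summed highest in untreated replicate 3 (3251 CPM).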

How the results depend on the processing

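The falls of Gas6 and Mfge8 after TBI kept their direction and their call in 15 of 16 alternatives each. These alternatives overlap, since for this comparison the library number term nearly repeats leaving out TBI replicate 6. The exception was the replicate block, with which neither was called (-3.47, adjusted p = 0.131, and -1.74, adjusted p = 0.181), 0 members were called after TBI, and the clearance genes called were 1 after TBI, 1 for IgG RIT against TBI, and 20 and 21 for CD45 RIT against untreated and TBI. In the check of pairing, 3 of 12 libraries correlated best with their own number. After IgG RIT the members called were 2 with no scaling, 2 with DESeq2, 3 with the 2 groups only and 0 with the library number term. Clearance genes called after TBI were 7 with no filter, 17 with DESeq2, 20 with the 2 groups only and 5 to 11 leaving out 1 library. After IgG RIT they were 0 with the library number term and 10 to 17 leaving out 1 library. For IgG RIT against TBI they were 2 with no scaling, 7 with DESeq2, 1 with the 2 groups only and 0 to 8 leaving out 1 library. With the 2 groups only they were 24 for CD45 RIT against untreated and 14 against IgG RIT, and with the library number term 4 against untreated and 21 against TBI.

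Log2 fold changes of scarce or unchanged members turned sign. Mfge8 in IgG RIT against TBI was -0.38 with no scaling, -0.074 with the block and -0.29 to 0.25 leaving out 1 library. Mertk against untreated was -2.36 after CD45 RIT with the block. Leaving out 1 library, Mertk after CD45 RIT ran from -8.35 to 3.41 against untreated, -3.61 to 10.8 against IgG RIT and -4.88 to 7.10 against TBI, each time lowest without CD45 RIT replicate 1. With the library number term, Mertk was 0.37 for IgG RIT against untreated and 3.58 against TBI, Pros1 -0.15 for IgG RIT against TBI, and Tyro3 3.31 and 2.72 for CD45 RIT against untreated and TBI. Leaving out 1 library, Tyro3 ran from -0.40 to 2.85 after TBI, -2.07 to 4.49 after IgG RIT, -4.81 to 0.50 after CD45 RIT, -2.38 to 2.35 for IgG RIT against TBI and -6.75 to 0.032 for CD45 RIT against IgG RIT. The causes were not tested. In libraries with 0 counts of Mertk or Tyro3, a level of up to 3 counts was not detectable. CD45 RIT replicate 2 had 0 counts of both, so the size of their changes without CD45 RIT replicate 1 is not measured.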
